A study of Mus musculus with 4 samples.

Results

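The ubiquitin-conjugating enzymes, or E2 enzymes, were followed here as the genes whose symbol begins with *Ube2* and a further letter, in RNA-seq of mouse oocytes before culture and after culture with or without tubastatin A (TubA), a small molecule made to inhibit the deacetylase HDAC6. The symbols gave 38 members among the 21957 genes of the deposited table, and the symbol rule itself uses no expression value, although the gene group was picked with earlier results of these data known. The oocytes came from PMSG-primed B6D2F1 (C57BL/6 x DBA) females that were 6 to 8 weeks old, and they were stripped of cumulus cells and held in M16 medium. Germinal vesicle (GV) oocytes were untreated and taken at 0 h of culture, MII oocytes were untreated and taken after 12 h if they had extruded a polar body, and TubA-10 and TubA-20 oocytes were taken after 12 h with 10 or 20 μM TubA from a DMSO stock diluted in saline. A polar body was not stated as a criterion for the TubA oocytes, and it is not given in the sources used here whether the MII medium held DMSO. The doses are those of the sample titles. The treatment field lists 20 μM beside TubA-10 and 11 μM beside TubA-20. The MII sample is titled an embryo and is described as MII oocytes by the study.

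Each condition was measured in 1 library made from pooled oocytes after oligo(dT) selection. No difference below can therefore be set against a spread between replicates, and none has a p-value. The study's methods describe pooled oocytes, while its discussion writes of single-oocyte RNA-seq. Values are FPKM, fragments per kilobase of transcript scaled to the mapped fragments of each library, which can be compared between genes. A change is the log2 ratio of FPKM + 1, a scale on which low genes appear to change less than they did, and a gene was called higher or lower when it passed 2-fold on that scale. FPKM are relative to all mapped fragments, so neither the number of oocytes nor the RNA per oocyte can be read from them. A higher FPKM therefore need not mean more mRNA per oocyte. All 10 oocyte markers, such as *Zp3* and *Gdf9*, lay between 197 and 8610 FPKM, the summed level of 10 cumulus and granulosa markers ranged from 8.29 to 15.6 FPKM, and 5 blood markers summed to at most 0.00893 FPKM. Of the cumulus and granulosa markers, *Foxl2* was listed at 0 in every library, and 7 to 9 of the 10 lay below 1 FPKM. *Inha* was at 7.502 FPKM in GV and between 0.239 and 0.314 in the cultured libraries, while *Cyp19a1* was at 6.14 FPKM in GV and between 7.42 and 10.3 after culture, and their part in the differences from GV was not tested. From the steps between low values, the depth of MII was estimated at 1.63 times that of GV, with 1.68 times for TubA-10 but 0.897 times for TubA-20. These are rough estimates, since at most 26.2% of the low genes lay near a step. The total reads of each library put GV below TubA-20 and TubA-10 below MII, as the study's text gives them. Over the 6016 genes that reached 5 FPKM everywhere, log2 changes against GV had a median of 0.23 for both MII and TubA-10 but 0.36 for TubA-20, and relative to that median gene every change from GV is lower by about these amounts.

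Ubiquitin is a small protein that is attached to other proteins in a cascade: an E1 enzyme activates it, an E2 enzyme carries it on a cysteine, and an E3 ligase chooses the substrate and brings the E2 to it. Much of the specificity of the chain that is built lies in the E2, and some E2 enzymes carry SUMO or NEDD8, proteins related to ubiquitin, in its place. In oocytes the anaphase-promoting complex (APC/C), an E3 ligase, marks cyclin B and securin for destruction so that meiosis can proceed, and fully grown oocytes transcribe little, so their poly(A) mRNA levels are known to change mainly through decay and through the length of the poly(A) tail.

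The E2 mRNAs were abundant as a group and were dominated by a few genes. Their levels summed to 4384 FPKM in GV and 4662 in MII, and to 4870.5 in TubA-10 and 5479 in TubA-20, which was 0.703%, 0.820%, 0.825% and 0.873% of all FPKM. The 8 highest members held 85.2% of that sum in GV and 87.2% in MII, beside 86.2% with TubA-10 and 89.7% with TubA-20. *Ube2d3*, which works with many E3 ligases, had the highest level in GV at 1078 FPKM, *Ube2t*, the E2 of the Fanconi anaemia pathway, in MII and TubA-10 at 1086 and 999 FPKM, and *Ube2s*, which lengthens chains on APC/C substrates, in TubA-20 at 1095 FPKM. By level, *Ube2s* ranked 269 among all genes in GV and 68 in TubA-20. Of the 38 members, 32 reached 1 FPKM in at least one library. *Ube2d2b*, *Ube2dnl2*, *Ube2l6* (an E2 for the interferon-induced modifier ISG15) and the processed pseudogene *Ube2d4* were listed at 0 in all 4 libraries, and *Ube2dnl1* and *Ube2ql1* stayed at or below 0.438 FPKM.

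**Figure D1:**
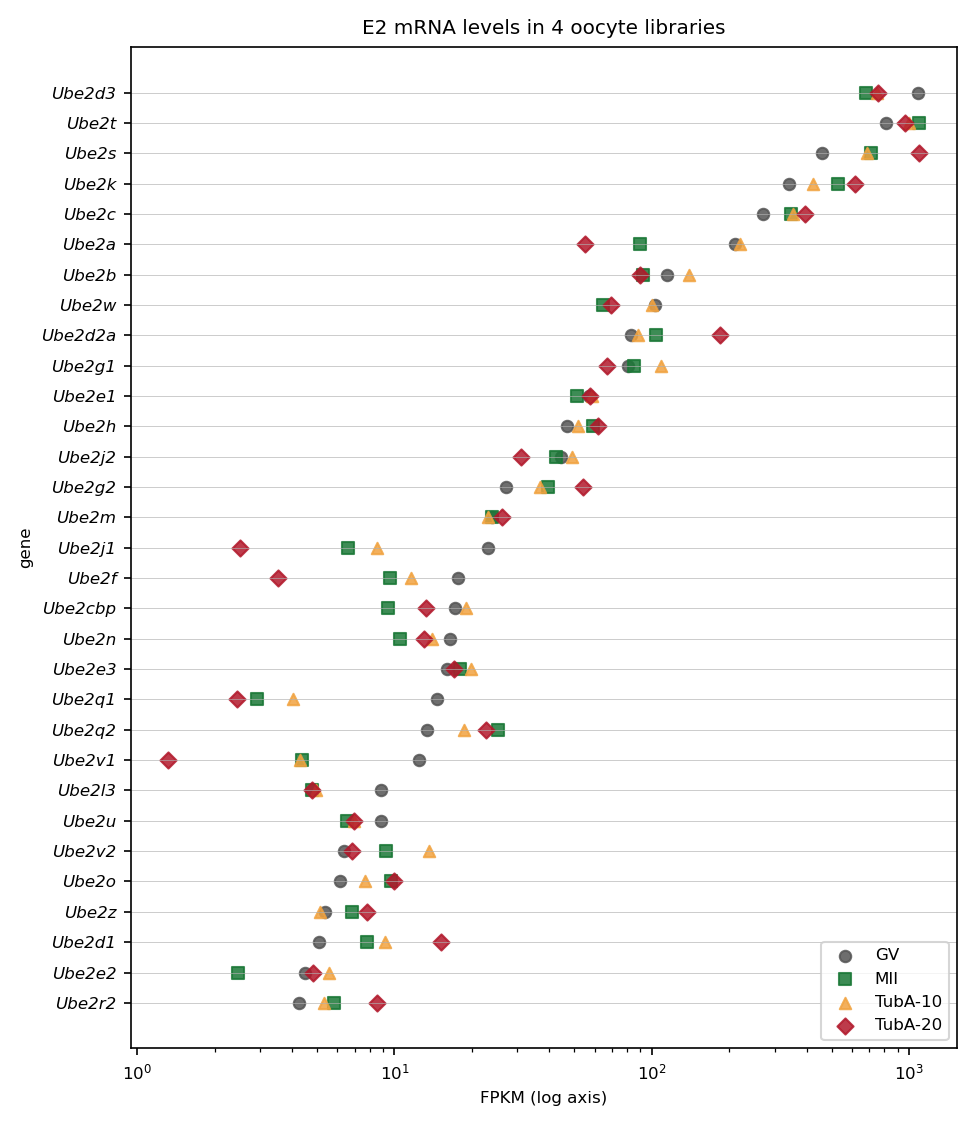
FPKM (log axis) of 31 of the 32 E2 members that reached 1 FPKM, 1 symbol for each of the 4 libraries, sorted by the GV level. The levels span from 1.32 FPKM (*Ube2v1* in TubA-20) to 1095 FPKM (*Ube2s* in TubA-20), and *Ube2a*, *Ube2f*, *Ube2j1*, *Ube2q1* and *Ube2v1* lie far below their GV values in TubA-20.

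From GV to TubA-20 the members moved in both directions, with a median near 0. *Ube2d1*, *Ube2d2a* and *Ube2s* were more than 2-fold higher, 7.89% of the members beside 7.61% of all genes. *Ube2a*, *Ube2f*, *Ube2j1*, *Ube2q1* and *Ube2v1* were more than 2-fold lower, 13.2% beside 11.7% of all genes. The members' median log2 change was 0.01, beside 0.00 over all genes, with 19 members higher, 15 lower and 4 at 0. These shares lie near those of the whole table, which also holds many genes that were not expressed. Of the 10760 genes with at least 1 FPKM in GV or TubA-20, 15.5% were higher and 23.9% lower by more than 2-fold, and 32 members met that minimum, the same 3 and 5 being past 2-fold. The sign of the members' median turned with the median change of the 6016 genes set to 0, where it was -0.22.

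From GV to MII no member was more than 2-fold higher, beside 3.05% of all genes, and *Ube2a*, *Ube2j1*, *Ube2q1* and *Ube2v1* were more than 2-fold lower, 10.5% of the members beside 8.34% of all genes. From GV to TubA-10 again no member was past 2-fold upward, beside 0.742% of all genes, and *Ube2j1*, *Ube2q1* and *Ube2v1* were past it downward, 7.89% beside 5.60%. Restricted to 1 FPKM or more in either library, 17.2% of 10661 genes were past 2-fold downward in MII, beside 4 of 32 members, and 11.6% of 10631 genes in TubA-10, beside 3 of 32. The comparisons with GV share the GV library, so a high or low GV value enters all 3. The medians of the members were 0.00 in MII and 0.07 in TubA-10.

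**Figure D2:**
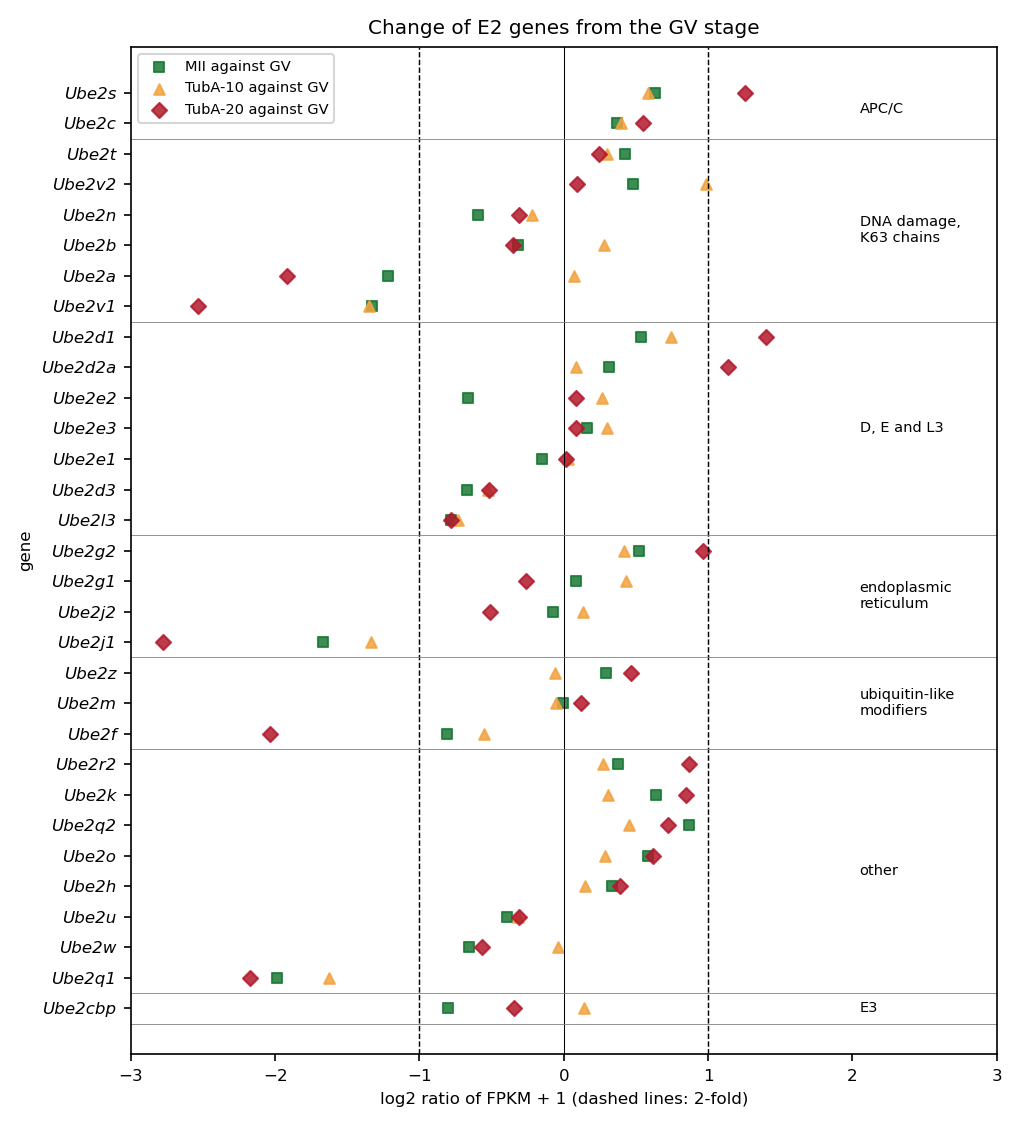
Log2 ratio of FPKM + 1 against GV for MII, TubA-10 and TubA-20 in 31 of the 32 members that reached 1 FPKM, by role; dashed lines mark 2-fold. TubA-20 lies past the lines for 3 members to the right and 5 to the left, with the lowest value, -2.78, at *Ube2j1*.

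Both mRNAs for the E2 enzymes of the APC/C had higher values after culture than in GV, but only *Ube2s* in TubA-20 passed 2-fold. UBE2C places the initial ubiquitins on APC/C substrates, and UBE2S extends them into chains. *Ube2s* (GRCm38 chr7:4794546-4812590, minus strand) was at 457 FPKM in GV, beside 711 in MII, 685 with TubA-10 and 1095 with TubA-20. GV was lowest and TubA-20 highest, while MII and TubA-10 lay close together. On the log2 scale MII exceeded GV by 0.63, TubA-10 by 0.58 and TubA-20 by 1.26. The last was under 2-fold (0.89) once the median change was 0, and it stayed higher than GV under every scaling tried. *Ube2c* (chr2:164769898-164778822, plus strand) was at 269.7 (GV), 348 (MII), 355 (TubA-10) and 394 FPKM (TubA-20). GV was again lowest and TubA-20 highest (TubA-10 with equal *Gapdh*), but on the log2 scale MII exceeded GV by only 0.37, TubA-10 by 0.39 and TubA-20 by 0.55. The ratio of *Ube2s* to *Ube2c* FPKM was 1.70 in GV and 2.04 in MII, and 1.93 with the lower and 2.78 with the higher dose. Against MII directly, TubA-20 differed by 0.62 for *Ube2s* and 0.18 for *Ube2c*, and TubA-10 by -0.05 and 0.03. The small TubA-10 value of *Ube2c* turned negative with equal FPKM sums and equal upper quartiles.

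The 6 members with roles in DNA damage tolerance and repair, or in the non-degradative chains built by UBE2N, diverged from each other. *Ube2a* (X chromosome, chrX:36873900-36884222), which with RAD18 marks the clamp PCNA and with RNF20 and RNF40 marks histone H2B, was at 210.1 FPKM in GV and 89.6 in MII, and at 220.3 and 54.7 in TubA-10 and TubA-20. TubA-10 stayed at the GV level, MII was lower and TubA-20 lowest. Its log2 change against GV was -1.22 for MII, 0.07 for the lower dose and -1.92 for the higher, and that of MII was just under 2-fold with equal *Gapdh*, at -0.99. *Ube2b* (chr11:51985497-52000762), which encodes a near-identical enzyme with the same partners, was at 115 FPKM in GV, beside 92.1 in MII, 139.9 with TubA-10 and 90.0 with TubA-20. It stayed within 2-fold in every comparison. *Ube2a* therefore made up 64.7% of the summed FPKM of the pair in GV and 49.3% in MII, beside 61.2% with the lower dose and 37.8% with the higher. The coding sequences of the pair were 77.6% identical over 456 bases, and the longest run they shared was 17 bases.

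*Ube2n* encodes the enzyme that builds the non-degradative chains of the DNA damage and immune pathways, with UBE2V1 or UBE2V2 as a partner that lacks the active cysteine. *Ube2n* was at 16.4 (GV), 10.5 (MII), 13.9 (TubA-10) and 13.0 FPKM (TubA-20). GV was highest (TubA-10 with equal *Gapdh*) and MII lowest, with no change past 2-fold. *Ube2v1* (chr2:167607638-167632095) was at 12.5 FPKM in GV and 4.37 in MII, and at 4.29 and 1.32 in TubA-10 and TubA-20. It was lowest in TubA-20, with a log2 change of -2.54 from GV and -1.21 from MII, and at nearly equal values in MII and TubA-10. *Ube2v2* (chr16:15552077-15595773) was at 6.37 FPKM in GV, beside 9.28 in MII, 13.6 with TubA-10 and 6.83 with TubA-20, highest in TubA-10 with a log2 change of 0.99 from GV. That change passed 2-fold with a pseudocount of 0.1 (1.08), equal FPKM sums (1.06), equal *Gapdh* (1.24) or equal upper quartiles (1.02), and its TubA-20 against TubA-10 log2 difference, -0.90, passed it with equal *Gapdh* (-1.09). *Ube2v1* held 66.2% of the summed FPKM of the pair in GV and 32.0%, 24.0% and 16.2% in MII, TubA-10 and TubA-20. Both have near-identical copies in the annotation, and *Ube2v1* overlaps on the same strand the coding gene *Gm20431*, which was listed at 2.49e-06 FPKM or less in all 4 libraries, so their values are uncertain.

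*Ube2t* was at 809 (GV), 1086 (MII), 999 (TubA-10) and 960.0 FPKM (TubA-20). It was among the 2 highest E2 mRNAs in every library, and its log2 change from GV lay between 0.25 and 0.42. With the median change at 0 its TubA-20 value was -0.12. In TubA-20, 1 of these 6 members lay past 2-fold below MII and 2 lay past it below TubA-10, where 2.44% and 5.52% of all genes, or 5.21% and 11.7% of genes with at least 1 FPKM, were past it downward.

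The broad E2 enzymes of the D, E and L3 kind, which serve many E3 ligases, held both the highest GV level and the highest rise. *Ube2d3* (chr3:135438149-135468198) was at 1078 FPKM in GV and 676 in MII, and at 748 and 754 in TubA-10 and TubA-20, with GV above the 3 cultured libraries and log2 changes from GV of -0.67, -0.53 and -0.52 in MII, TubA-10 and TubA-20. *Ube2d2a* was at 83.1 FPKM in GV, beside 104 in MII, 88.0 with TubA-10 and 184 with TubA-20. TubA-20 stood apart from the other 3 libraries, with a log2 change of 1.14 from GV (0.77 with the median change set to 0), 0.82 from MII and 1.05 from TubA-10. *Ube2d1* (chr10:71254980-71285262) was at 5.09 (GV), 7.82 (MII), 9.22 (TubA-10) and 15.1 FPKM (TubA-20), lowest in GV and highest in TubA-20. Its log2 change from GV to TubA-20, 1.40, was the highest of all members and passed 2-fold under every alternative tried. *Ube2d3* made up 92.4% of the D genes' FPKM before culture and 85.8% in MII, beside 88.5% with the lower dose and 79.1% with the higher, and *Ube2d2a* 7.13%, 13.2%, 10.4% and 19.3% in the same order. The coding sequences of *Ube2d2a* and *Ube2d3* were 86.4% identical with a longest shared run of 42 bases. Both also match other annotated genes, among them *AC141471.2*, which overlaps *Ube2d2a* on the same strand, so these values are uncertain.

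The E genes *Ube2e1*, *Ube2e2* and *Ube2e3* were steadier, with summed levels between 71.8 FPKM in MII and 83.8 FPKM in TubA-10. *Ube2e1* was at 57.0 FPKM in GV and 51.3 in MII, and at 58.3 and 57.7 in TubA-10 and TubA-20. It held 69.6% to 73.6% of that sum, and *Ube2e3* lay between 16.0 and 19.9 FPKM. *Ube2e2* was at 4.49 FPKM in GV, beside 2.47 in MII, 5.59 with TubA-10 and 4.83 with TubA-20, lowest in MII, and TubA-10 exceeded MII by 0.93, which passed 2-fold with a pseudocount of 0.1 (1.15). *Ube2l3*, the E2 of Parkin and of linear chain assembly, was at 8.90 (GV), 4.77 (MII), 4.97 (TubA-10) and 4.77 FPKM (TubA-20) and so at nearly equal levels in the 3 cultured libraries, below GV. Its TubA-20 against GV log2 change, -0.78, passed 2-fold with the median change set to 0 (-1.07).

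**Figure D3:**
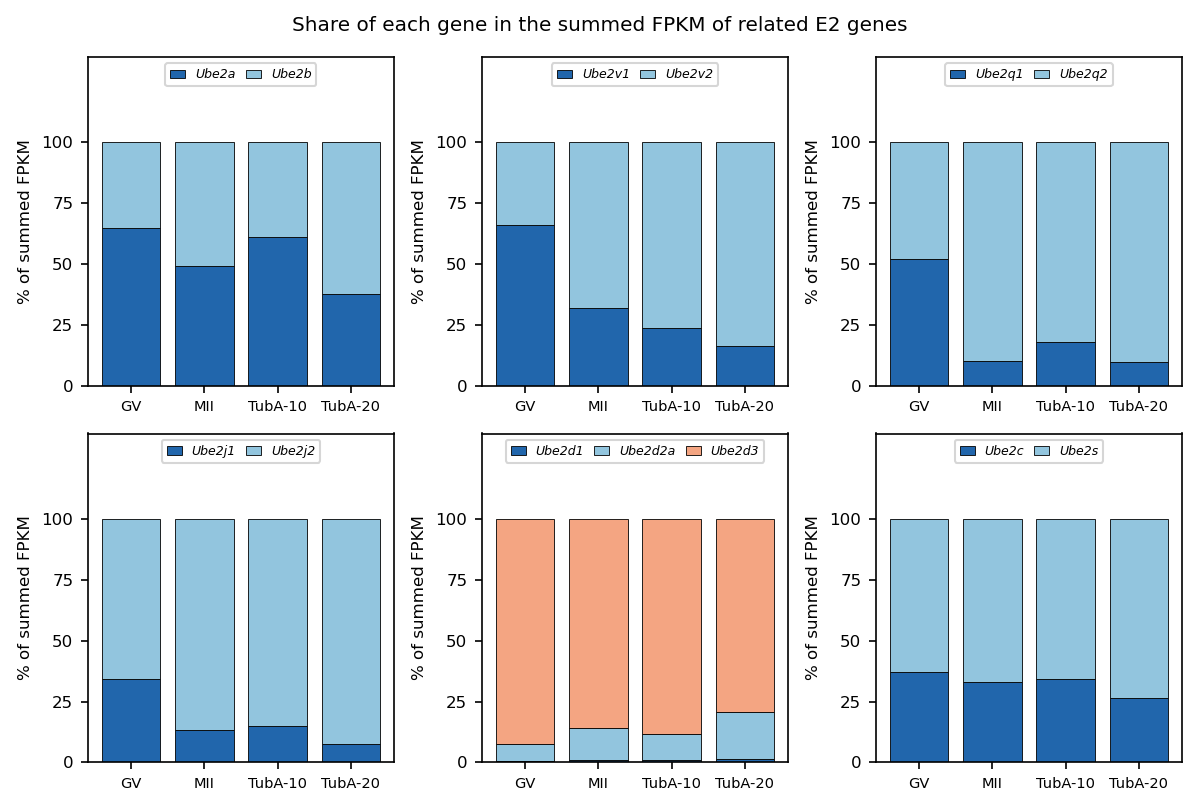
Stacked bars give the percentage of the summed FPKM of related E2 genes that each gene held in each of the 4 libraries. *Ube2a*, *Ube2v1* and *Ube2q1* held more than their partners in GV (64.7%, 66.2% and 52.2%) and less in TubA-20 (37.8%, 16.2% and 9.72%).

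Of the 4 E2 genes of protein quality control at the endoplasmic reticulum, *Ube2j1* was the one past 2-fold. *Ube2j1* (chr4:33031416-33052363), a membrane-anchored E2, was at 23.1 FPKM in GV and 6.59 in MII, and at 8.55 and 2.51 in TubA-10 and TubA-20. Every cultured library was below GV, and TubA-20 was lowest, with log2 changes of -2.78 from GV, -1.11 from MII and -1.44 from TubA-10. Its relative *Ube2j2* (chr4:155943831-155959604) was at 44.5 FPKM in GV, beside 42.3 in MII, 48.9 with TubA-10 and 30.9 with TubA-20. It did not pass 2-fold anywhere, so that *Ube2j1* held 34.2% of the pair in GV and 7.51% in TubA-20. *Ube2g2* was at 27.2 (GV), 39.4 (MII), 36.6 (TubA-10) and 54.2 FPKM (TubA-20), highest in TubA-20, where the log2 change from GV was 0.97 (1.04 with equal *Gapdh*). *Ube2g1* was at 80.5 FPKM in GV and 85.3 in MII, and at 109 and 66.8 in TubA-10 and TubA-20, highest in TubA-10 and lowest in TubA-20.

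Among the E2 enzymes that carry relatives of ubiquitin, the NEDD8 genes differed. *Ube2m* and *Ube2f* encode the pair of NEDD8 enzymes, UBE2M acting with RBX1 and UBE2F with RNF7 to modify cullins. *Ube2m* was at 24.0 FPKM in GV, beside 23.9 in MII, 23.0 with TubA-10 and 26.1 with TubA-20, nearly level across the libraries. *Ube2f* (chr1:91250304-91290337) was at 17.6 (GV), 9.59 (MII), 11.6 (TubA-10) and 3.54 FPKM (TubA-20). It was lowest in TubA-20, with log2 changes of -2.03 from GV and -1.22 from MII. Its MII against GV log2 change, -0.81, was -1.02 with the median change set to 0. *Ube2z*, the E2 that works with UBA6, was at 5.38 FPKM in GV and 6.83 in MII, and at 5.13 and 7.80 in TubA-10 and TubA-20.

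The remaining members held 1 further gene past 2-fold. *Ube2q1* (chr3:89773616-89784000) was at 14.6 FPKM in GV, beside 2.94 in MII, 4.04 with TubA-10 and 2.45 with TubA-20. The 3 cultured libraries were all below GV, with log2 changes of -1.98, -1.63 and -2.18 in MII, TubA-10 and TubA-20. Its relative *Ube2q2* (chr9:55148854-55207529) was at 13.4 (GV), 25.2 (MII), 18.6 (TubA-10) and 22.7 FPKM (TubA-20), lowest in GV and highest in MII, where the log2 change was 0.87 (1.09 with equal *Gapdh*). *Ube2q1* held 52.2% of the pair in GV and 10.4%, 17.8% and 9.72% in MII, TubA-10 and TubA-20, while the sum of the pair stayed between 22.7 and 28.2 FPKM.

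*Ube2k*, an E2 that builds chains read by the proteasome, was at 341 FPKM in GV and 530.4 in MII, and at 422 and 614 in TubA-10 and TubA-20, with GV lowest and TubA-20 highest at a log2 change of 0.85. *Ube2h*, the E2 of the CTLH ligase, was at 46.7 FPKM in GV, beside 59.1 in MII, 51.8 with TubA-10 and 61.6 with TubA-20. *Ube2w*, which modifies the amino terminus of proteins, was at 103 (GV), 64.8 (MII), 100.02 (TubA-10) and 69.1 FPKM (TubA-20). GV and TubA-10 were alike and above MII and TubA-20. *Ube2r2*, a close relative of *Cdc34*, was at 4.25 FPKM in GV and 5.80 in MII, and at 5.34 and 8.55 in TubA-10 and TubA-20, highest in TubA-20 with a log2 change of 0.87 from GV. *Ube2o*, a large enzyme with both E2 and E3 activity, was at 6.12 FPKM in GV, beside 9.69 in MII, 7.70 with TubA-10 and 9.92 with TubA-20, and *Ube2u* at 8.88 (GV), 6.53 (MII), 6.94 (TubA-10) and 6.96 FPKM (TubA-20). *Ube2cbp* matches the symbols but encodes an E3 that binds UBE2C, and was at 17.1 FPKM in GV and 9.40 in MII, and at 19.0 and 13.2 in TubA-10 and TubA-20. It was lowest in MII, where the log2 change from GV was -0.80 (-1.01 with the median change set to 0).

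Set against MII, which shares the culture time, TubA-20 had 3 members past 2-fold, all lower, and TubA-10 had 1, which was higher. MII oocytes had a polar body, while the study reports a block before MII with the higher dose. Meiotic stage may therefore differ together with the drug in these comparisons, and the part of each was not tested. In TubA-20 *Ube2f*, *Ube2j1* and *Ube2v1* were more than 2-fold lower, 7.89% of the members beside 2.44% of all genes. Of the 10280 genes with at least 1 FPKM in either library 5.21% were as far below, beside these 3 of 32 members. These 3 mRNAs had 9.59, 6.59 and 4.37 FPKM in MII, and with at least 5 FPKM required in one library *Ube2v1* dropped out. No member was more than 2-fold higher in TubA-20, beside 0.328% of all genes and 0.7% of those 10280. The highest values were 0.87 for *Ube2d1* and 0.82 for *Ube2d2a*. In TubA-10 *Ube2a* was past 2-fold upward, at 1.29, which is 2.63% of the members beside 0.515% of all genes. No member was past it downward, beside 0.128%. Of the 10315 genes with at least 1 FPKM in either library, 1.1% were as far above and 0.271% as far below, beside 1 and 0 of 32 members. *Ube2cbp* and *Ube2e2* came closest to an upward call at 0.94 and 0.93, and both passed 2-fold with a pseudocount of 0.1 (1.01 and 1.15).

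Between the doses, *Ube2a*, *Ube2f*, *Ube2j1* and *Ube2v1* lay more than 2-fold lower with TubA-20 than with TubA-10, 10.5% of the members beside 5.52% of all genes. Of the 10376 genes with at least 1 FPKM in either library 11.7% were as far down, beside these 4 of 32 members. *Ube2a* had the lowest log2 difference, -1.99, and *Ube2f*, *Ube2j1* and *Ube2v1* were at -1.48, -1.44 and -1.18. *Ube2d2a* was more than 2-fold higher, 2.63% of the members beside 0.660% of all genes and 1.40% of those 10376. It fell below 2-fold under all 4 scalings of the libraries, at 0.86 to 0.97. TubA-20 was shallower than TubA-10 both by the estimates above and by the stated read totals, and the part of depth in these differences was not tested.

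**Figure D4:**
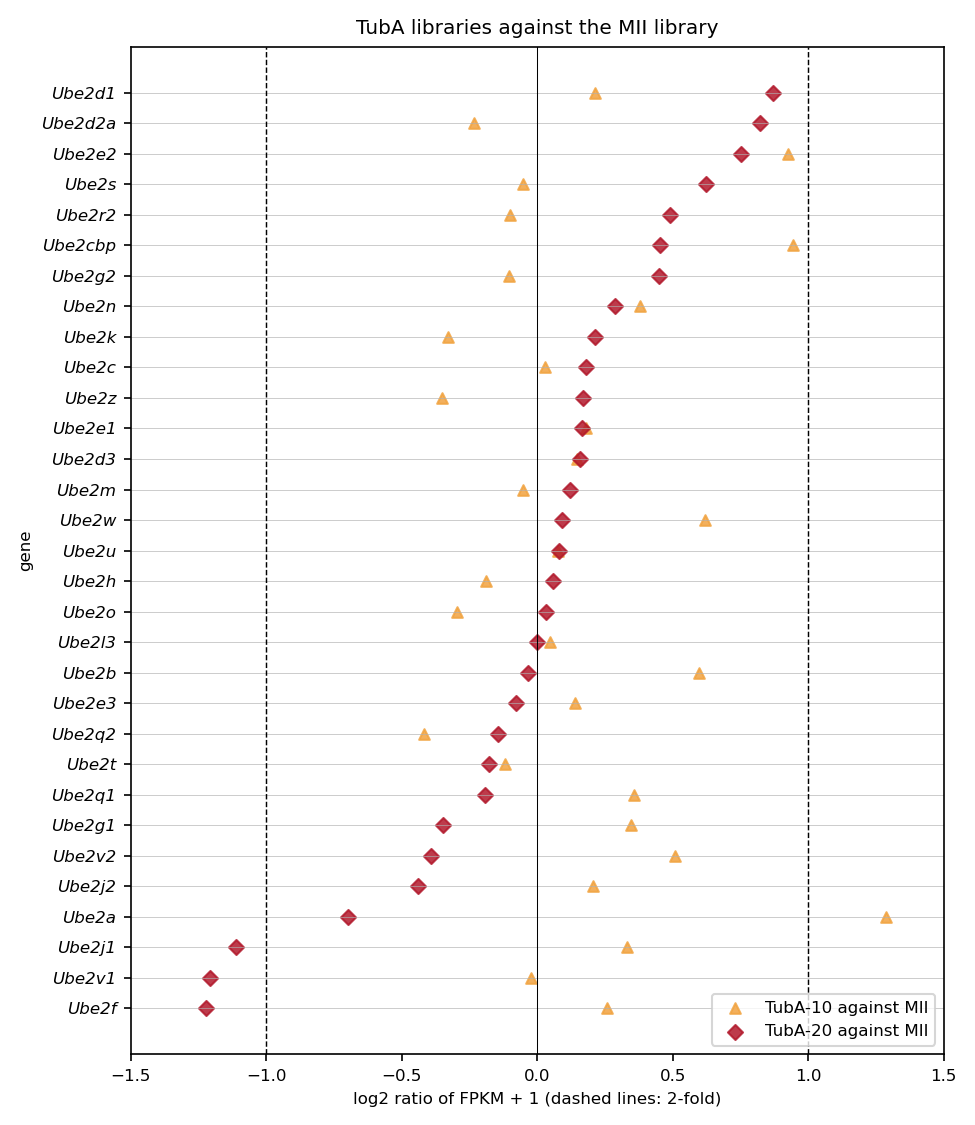
Log2 ratio of FPKM + 1 of TubA-10 and TubA-20 against MII for 31 of the 32 members that reached 1 FPKM, sorted by TubA-20; dashed lines mark 2-fold. *Ube2f*, *Ube2v1* and *Ube2j1* lie past the left line in TubA-20, and *Ube2a* past the right line in TubA-10.

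Because the mRNA was captured by its poly(A) tail, the annotated 3′ ends of the members were read for elements that bear on that tail. The cytoplasmic polyadenylation element (CPE) is bound by CPEB, which controls the tails of stored oocyte mRNAs, and was searched as TTTTAT or TTTTAAT in the last 100 bases of the principal transcript (GENCODE M21), on the mRNA strand only. Of 34 members with a 3′ UTR of at least 100 bases, 4 held a CPE (11.8%), beside 18.0% of 19087 genes. Among them were *Ube2t*, *Ube2q2* and *Ube2g2*, and their TubA-20 against GV log2 changes were 0.25, 0.72 and 0.97. None of these 3 is past 2-fold, and neither the 3 members more than 2-fold higher in TubA-20 nor the 5 more than 2-fold lower held a CPE in that window. Among the 19087 genes with such a window, 31.8% of the 1592 that TubA-20 held more than 2-fold above GV and 9.73% of the 2209 it held as far below carried one. A match of letters does not show a working site, and tail lengths were not measured.

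The sites of these 3 genes are shown as 30 bases of the 3′ UTR on the mRNA strand, with the element in capitals, because their annotated 3′ ends carry one.
Ube2t, chr1:134974081-134974110: aaggatagtttgTTTTATttatcttgtaca
Ube2q2, chr9:55207427-55207456: ttttttttttgaTTTTATttttcattgcag
Ube2g2, chr10:77645882-77645911: aaaacaaagtatTTTTATtcatttgtattt
The element began 70 bases before the annotated end in *Ube2t*, 91 in *Ube2q2* and 100 in *Ube2g2*. In *Ube2s* and *Ube2c*, shown next, the chosen transcript ends inside the gene, so other ends are possible.

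The cleavage signal, searched as AATAAA or ATTAAA in the same window, was held by 30 of the 34 members (88.2%), beside 78.8% of the 19087 genes. It is shown in capitals for the APC/C pair, for *Ube2d1* with the highest rise from GV to TubA-20, for *Ube2j1* and *Ube2v1* with the lowest changes and for *Ube2a*, all of which have this signal but no CPE within 100 bases of the end.
Ube2s, chr7:4808016-4808045: tttggttttctaAATAAAaagttggaaaag
Ube2c, chr2:164772866-164772895: caatgtatattaAATAAAtacacattgatt
Ube2d1, chr10:71254985-71255014: cttttccatataAATAAAatgctttttcta
Ube2j1, chr4:33052309-33052338: ttattctactgaAATAAAtgctttcaccaa
Ube2v1, chr2:167607644-167607673: cgagtctactatAATAAAaaagtatgcttt
Ube2a, chrX:36884190-36884219: tcaaaagttgtaAATAAAaaaataacctta
*Ube2s* and *Ube2c* have short 3′ UTRs of 141 and 345 bases, *Ube2j1* has 2403, and the median of the 34 members was 1369 beside 947 over the same 19087 genes. All coordinates are on GRCm38, and the sites lie in 3′ UTR exons.

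On either side of the E2 enzymes in the cascade stand the ubiquitin genes, the E1 genes and the E3 genes. Of the ubiquitin genes, *Ubb* and *Rps27a* are given. *Ubb*, a polyubiquitin gene, was at 1932 FPKM in GV, beside 1167 in MII, 1857 with TubA-10 and 515 with TubA-20. TubA-10 stayed close to GV and TubA-20 was lowest, with log2 changes of -1.91 from GV and -1.18 from MII. *Rps27a*, which encodes ubiquitin fused to a ribosomal protein, was at 611 (GV), 86.1 (MII), 118 (TubA-10) and 41.8 FPKM (TubA-20) and so lower in every cultured library.

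Of 8 E1 genes, 1 lay more than 2-fold above GV in MII and in TubA-20, and none as far below. Over all genes 3.05% and 7.61% were past 2-fold upward in these libraries, and 8.34% and 11.7% downward. It was *Uba3*, a subunit of the NEDD8 E1, at 28.0 FPKM in GV and 58.4 in MII, and at 53.8 and 70.1 in TubA-10 and TubA-20. Its log2 changes from GV were 1.03 in MII and 1.29 in TubA-20. Both fall below 2-fold relative to the median of the 6016 genes that reached 5 FPKM everywhere (0.23 and 0.36). *Nae1*, the other subunit, was at 137 FPKM in GV, beside 216 in MII, 234 with TubA-10 and 259 with TubA-20, and *Uba1*, the main ubiquitin E1, at 70.2 (GV), 52.7 (MII), 60.9 (TubA-10) and 54.8 FPKM (TubA-20).

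**Figure D5:**
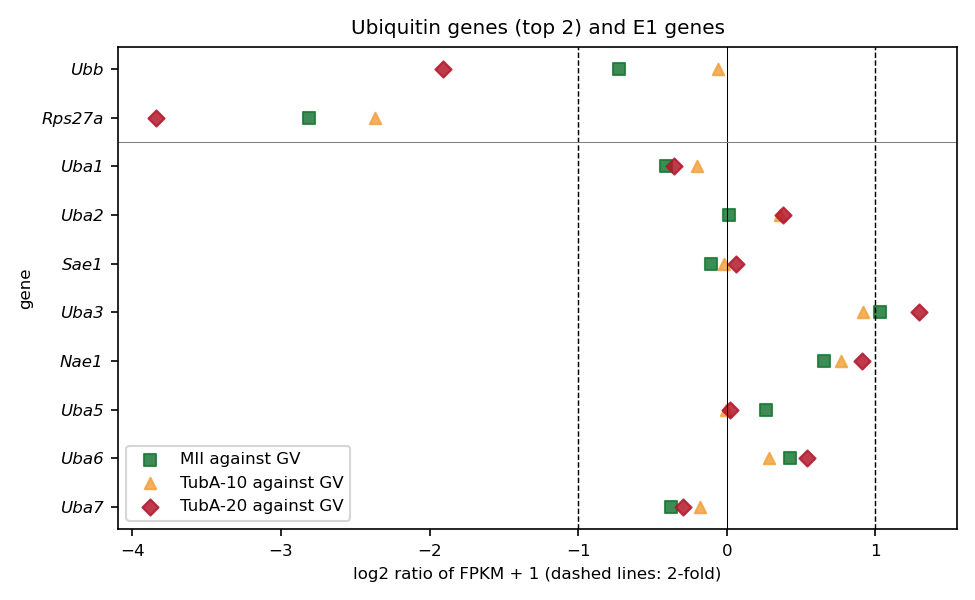
Log2 ratio of FPKM + 1 against GV of 2 ubiquitin genes and 8 E1 genes in MII, TubA-10 and TubA-20; dashed lines mark 2-fold. *Ubb* and *Rps27a* lie past the left line in TubA-20, and *Uba3* past the right line in MII and TubA-20.

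Of 9 E2 and E2-like genes with other symbols, 2 were more than 2-fold higher and 1 lower in TubA-20 than in GV, where 7.61% of all genes were higher and 11.7% lower (15.5% and 23.9% of those with at least 1 FPKM). *Cdc34*, the E2 of the SCF ligases, was at 107 FPKM in GV and 182 in MII, and at 138 and 232 in TubA-10 and TubA-20, and *Atg3*, the E2-like enzyme of autophagy, at 12.9 FPKM in GV, beside 21.2 in MII, 18.8 with TubA-10 and 27.0 with TubA-20. The TubA-20 against GV log2 changes of *Cdc34* and *Atg3* were 1.11 and 1.01. Both fall below 2-fold relative to the median of the 6016 genes, 0.36. *Ufc1*, the E2 of the modifier UFM1, was at 29.3 (GV), 9.19 (MII), 13.9 (TubA-10) and 3.30 FPKM (TubA-20), the one that was lower. *Cdc34b* was at 59.2 FPKM in GV and 49.8 in MII, and at 43.9 and 47.8 in TubA-10 and TubA-20. Of 34 E3 ligases and adaptors that work with E2 enzymes, 10 lay more than 2-fold above GV and 6 below it after TubA-20, against 3 above and 1 below in MII. After TubA-20, 7.61% of all genes were as far above GV and 11.7% as far below, or 15.5% and 23.9% of genes with at least 1 FPKM. In MII these shares were 3.05% and 8.34%, or 6.28% and 17.2%. The 10 E3 genes above GV after TubA-20 had log2 changes of 1.15 to 1.38, and the 3 in MII of 1.01 to 1.16. Relative to the median of the 6016 genes, 0.36 and 0.23, most of them fall below 2-fold. The alternatives were not run for this list. The median log2 change of these E3 genes was 0.65 in TubA-20 and 0.47 in MII, beside 0.36 and 0.23 for the 6016 genes that reached 5 FPKM everywhere and 0.07 and 0.04 for the 10898 that reached 1 FPKM in any library. *Rad18*, a partner of UBE2A and UBE2B, was at 17.3 FPKM in GV, beside 29.5 in MII, 26.3 with TubA-10 and 46.8 with TubA-20, and *Rnf168*, which acts with UBE2N at DNA breaks, at 117 (GV), 220.4 (MII), 166 (TubA-10) and 295 FPKM (TubA-20). *Anapc2*, the APC/C cullin, was at 19.7 FPKM in GV and 6.82 in MII, and at 6.84 and 4.93 in TubA-10 and TubA-20, and *Fzr1*, an APC/C activator, at 63.6 FPKM in GV, beside 50.3 in MII, 70.2 with TubA-10 and 23.1 with TubA-20. *Fzr1* was near the GV level in TubA-10 and lowest in TubA-20, with log2 changes of -1.42 from GV and -1.09 from MII.

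Of the 37 members with an annotated coding transcript, 12 matched another annotated gene at 97% identity or more over at least 100 bases, among them *Ube2d2a*, *Ube2d3*, *Ube2f*, *Ube2g2*, *Ube2h*, *Ube2j2*, *Ube2l3*, *Ube2n*, *Ube2q2*, *Ube2v1* and *Ube2v2*. All 12 reached 1 FPKM, and their values are uncertain since the matching genes can draw on the same reads. Some of these matches, such as *Gm49325* for *Ube2g2*, overlap the member itself on the same strand. *Ube2a*, *Ube2c*, *Ube2d1*, *Ube2j1*, *Ube2q1* and *Ube2s* had no such match.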

How the data were processed

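Poly(A)-selected RNA from pooled mouse oocytes was sequenced in 1 library for each of 4 conditions. The authors deposited FPKM values, made with cufflinks for a strand-specific library type, so each value was already scaled to transcript length and mapped fragments. The submitters' processing notes name STAR 2.5.0, Cufflinks, Cuffdiff 2.2.1 and the build mm10. Identifiers were matched without their version to symbols, and 21794 of 21959 entries matched. Entries sharing a symbol were summed to give 21957 genes.

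The members and lists were chosen with earlier results of these data known. Log2 ratios used a pseudocount of 1 FPKM, and genes were called past 2-fold. With 1 library a condition no test was possible. Members reaching 1 FPKM could be named, and from each other list the 2 highest rises and 2 lowest falls from GV to TubA-20 among genes with at least 10 FPKM in GV or TubA-20. Alternatives were a pseudocount of 0.1, minimums of 1 and 5 FPKM, 4 scalings, and the highest entry of a shared symbol, and leaving out *Ube2cbp* was added after seeing the data. Scripts were tested on simulated data. Transcripts were taken from GENCODE M21, and copies were searched with BLAST 2.17.0. Python 3.11.15, numpy 2.4.6, pandas 2.3.3 and matplotlib 3.10.9 were used. Protein sequences are not used here, and the 3′ end sites were chosen in their place after the data were seen. A few results of single genes, in the text and in the plots, are not reported here.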

Additional observations from a re-analysis of the deposited data

How the results depend on the processing

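Depth per gene is not given by FPKM, and no replicate bounds any difference, so changes of members below 10 FPKM are the least firm. No paired analysis was possible because each condition had 1 library. Of 192 changes of named *Ube2* members under the alternatives, 34 changed sign under a scaling, and none of these was past 2-fold. The alternatives were not run for the ubiquitin, E1, E3 and other E2 genes. Of 1710 recomputed values, 12 newly passed 2-fold and 7 no longer did.

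The numbers of members past 2-fold, and their medians, moved as follows. For TubA-10 against GV, the count of higher members went from 0 to 1 with a pseudocount of 0.1, equal FPKM sums, equal *Gapdh* or equal upper quartiles, and the median log2 change went to -0.038 with the median change set to 0 and to 0.34 with equal *Gapdh*. For TubA-20 against GV, the count of higher members fell from 3 to 1 and the median went to -0.22 with the median change set to 0. For TubA-10 against MII, a pseudocount of 0.1 gave 4 higher and 1 lower. For TubA-20 against TubA-10, it gave 2 higher, and each of the 4 scalings gave 0, while the median went to -0.12 with the median change set to 0 and to -0.18 with equal *Gapdh*. For MII against GV, equal *Gapdh* gave 1 higher. The cause was not tested. The other 144 values, those without *Ube2cbp* included, stayed within 1.5 times for counts or 0.1 for medians.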
